A study of Mus musculus with 21 samples.

Results

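Embryoid bodies, the aggregates in which mouse embryonic stem cells differentiate, were compared at day 3 between cells without and with Cxxc5, also named Rinf. The genes described are those with a mean FPKM of at least 1 over the 4 day 3 libraries, which were 12090 of the 24458 genes in the table. FPKM counts sequenced fragments for each kilobase of a transcript and is scaled to library size. The lowest mean that passed was 1.00072 and the highest that did not was 0.999948, with 145 genes between 1 and 1.1 and 160 between 0.9 and 1.

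The day 3 groups were Rinf knockout (KO) embryoid bodies, 2 libraries, and Rinf wild type (WT) embryoid bodies, 2 libraries. Libraries of both genotypes at day 0 and day 6, 2 per genotype and day, entered the same model, which gave 12 libraries in all. All cells were V6.5 embryonic stem cells of a mixed 129/C57BL/6 background at passages 15-18, grown in serum with leukemia inhibitory factor (LIF), and the aggregates were made in hanging drops. Each genotype was represented by a pair of independent lines, so the p-values measure the spread between these samples, and fixed differences between single lines cannot be told apart from an effect of the genotype. An exact two-sided permutation test of 2 libraries against 2 cannot give a p under 0.333, so each p below comes from limma, a linear model fitted across all genes with Benjamini-Hochberg adjustment.

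The Cxxc5 protein contacts DNA through a zinc finger of the CXXC type, which recognises CpG without methylation. Over the first days in hanging drops, embryonic stem cells lose the naive state that resembles the early epiblast and take on a state like that of the epiblast just before gastrulation. Genes of the germline, of the placenta and of the imprinted domains are held down over the same period, in part by DNA methylation and Polycomb proteins.

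The 4 libraries held estimated depths of 27.8 and 33.1 M reads in KO, and 30.8 and 15.4 M reads in WT, taken from the steps of the lowest FPKM values. For a transcript of 2 kb, an FPKM of 1 then rested on 55.6 and 66.1 reads in KO, and on 61.7 and 30.7 reads in WT. Replicates correlated across genes with r = 0.983 in KO and 0.975 in WT, and 153 genes in KO and 193 in WT differed by over 1.5-fold between replicates. Along the first principal component, with 45.3% of the variance, the KO libraries lay at 15.8 and 20.9 and the WT libraries at -15.7 and -21.0. Fgf5, a growth factor gene of the primed epiblast, marked the stage: it was at 55.6 and 50.9 FPKM in KO and 60.9 and 58.7 in WT, after 2.30 and 0.902 in KO and 0.276 and 0.619 in WT at day 0. Feeder fibroblast markers, 5 of 14 of which passed the minimum, summed to 25.9 and 21.7 FPKM in KO and 26.8 and 27.3 in WT, and their collagen gene Col1a1 stayed at 0.687 FPKM or less in every day 3 library.

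Cxxc5 itself was at 5.05 and 7.08 FPKM in KO, against 30.9 and 36.1 in WT. Both KO libraries lay far below both WT libraries, with a log2 difference of -2.30 ± 0.20 (SE; adjusted p = 0.00279, limma). KO kept 18.1% of the WT level, and which exons were removed is unknown here, so the remaining RNA was not examined further.

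At day 3, 152 genes rose and 10 fell in KO, which is 1.26% and 0.0827% of the genes tested, at an adjusted p under 0.05 in limma. The rises were of moderate size: 65 reached 2-fold, and the median fold was 1.86 over the 149 with WT values above 0. The median log2 difference of all tested genes was -0.01. Every one of the 162 had KO and WT libraries that did not overlap, a pattern also present in 60.9% of all genes tested (29.1% with KO above WT and 31.8% with KO below). Leaving out KO replicate 1, KO replicate 2, WT replicate 1 or WT replicate 2 left 71, 19, 24 or 47 genes past the threshold. Of the 53 genes past the threshold that are named in the text, 26, 46, 43 and 39 lost the call in those 4 fits. Cxxc5, Rhox9, Tle6 and the short genes Mir1954, Snord8 and Mir1b kept it in each, and all 53 kept their direction. The short genes are listed at 0 in both WT libraries, a group without spread, so a kept call is no measure of their precision. A model of the 8 libraries of days 0 and 3, which leaves out the wider spread of day 6, called 433 rises (3.58%) and 140 falls (1.16%), and held all 162 genes. The 4 day 3 libraries alone gave 190 rises (1.57%) and 41 falls (0.339%), and 99 of the 162 genes were among them.

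Other settings ended some of these 53 calls without turning a direction. Testing all genes with any value ended 21, namely Rhox6, Calcoco2, Mir669j, Dppa3, Tfap2c, Gjb5, Hmox1, Mt1, Phf19, Pim3, Cyr61, Mpp1, Fabp3, Cdh3 and the falls Eif2s3y, Ntn1, Trp53i11, Ap1s2, Rnft1, Zfp354c and Pgd. Removing trends with GC content and length ended 14, which were Mir669k, Mir669j, Gjb5, Hmox1, Mt1, Pim3, Cyr61, Mpp1, Fabp3, Eif2s3y, Ap1s2, Rnft1, Tmem29 and Ppp4r3b. With the 4 day 3 libraries alone, 11 calls ended, those of Tfap2c, Krt7, Gjb5, Ulk1, Hmox1, Cyr61, Ntn1, Rnft1, Zfp354c, Ppp4r3b and Pgd. A pseudocount of 0.1 ended 6, those of Rhox6, Calcoco2, Phf19, Cyr61, Aqp3 and Pgd.

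**Figure D1:**
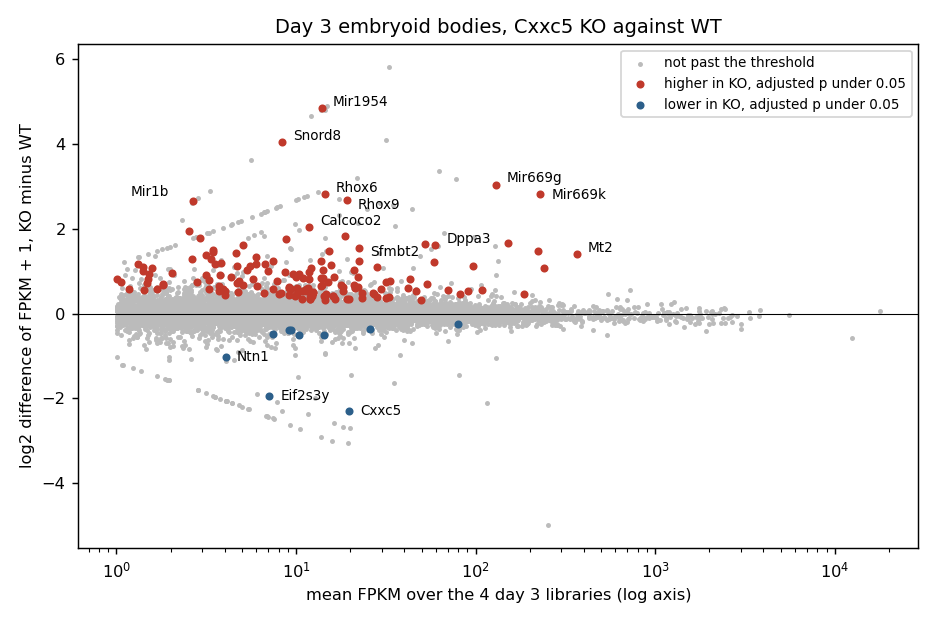
Log2 difference of FPKM + 1 (KO minus WT) against the mean FPKM of the 4 day 3 libraries for the 12090 genes tested. Colored points are the 152 genes that rose and the 10 that fell, and most of them lie above 0.

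The largest rises past the threshold brought together small RNA genes, Rhox homeobox genes of the X chromosome, germ cell precursor genes and an autophagy receptor. The largest included Mir1954, Snord8, Mir669g, Rhox6, Mir669k, Rhox9, Mir1b, Calcoco2, 3830417A13Rik, Wnt7b, Aard, Mir669j, Klhl13 and Dppa3. All genes past the threshold whose span in RefSeq is under 300 bases, 6 of 202 tested, beside 1.34% of all genes tested, are among these.

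**Figure D2:**
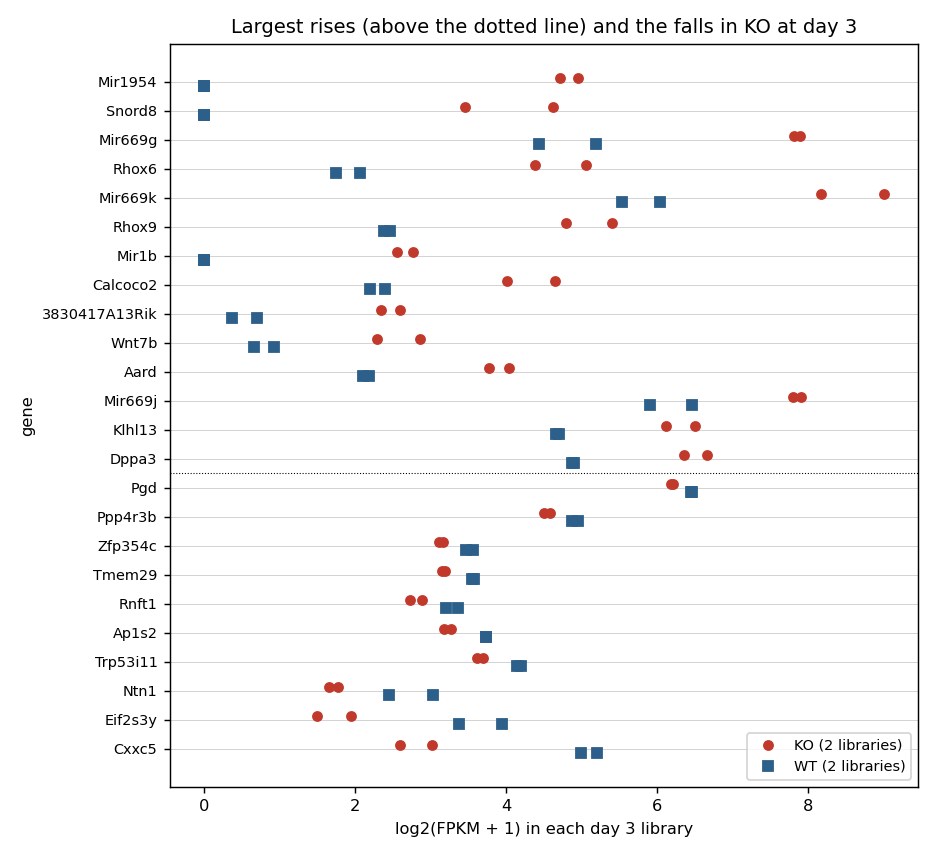
Level of the largest rises named in the text and of the 10 falls in each day 3 library, as log2(FPKM + 1), with KO drawn above WT in each row. In every row the KO and WT points are apart, and Mir1954, Snord8 and Mir1b are listed at 0 in both WT libraries.

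Sfmbt2 and the microRNA genes inside it were higher in KO together, and were singled out after their values were seen. Sfmbt2 encodes a Polycomb-associated protein with malignant brain tumor repeats. In mouse it is imprinted, expressed from the paternal copy, and it carries within an intron one of the largest microRNA clusters of the genome, whose products act in the placenta. Sfmbt2, at chr2:10370440-10595253 on GRCm38.p6 (the same coordinates as mm10), was at 29.8 and 38.1 FPKM in KO, against 10.7 and 10.9 in WT. Both KO libraries were above both WT libraries, and the gene rose by 1.56 ± 0.17 on the log2 scale (SE; adjusted p = 0.00684, limma).

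Of 72 microRNA genes that RefSeq places inside Sfmbt2, the table holds 57. The 40 that were not tested are listed at 0 in all 4 day 3 libraries, so no member with a value above 0 was lost to the minimum. In the 17 others the KO mean was above the WT mean each time. KO libraries were above WT in 12, beside 29.1% of all genes tested, and 3 rose past the threshold, beside 1.26%. Elsewhere in the genome, 117 microRNA genes were tested, of which 2 rose (Mir1954 and Mir1b) and 10, or 8.55%, had KO libraries above WT. The median log2 difference of those 117 was 0.07. Summed over the 17 genes, FPKM was 1219 and 1710 in KO, against 219 and 317 in WT.

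Mir669k was at 288 and 517 FPKM in KO, against 45.4 and 64.7 in WT (log2 difference 2.81 ± 0.33 SE; adjusted p = 0.00713, limma). Mir669g was at 237 and 224 FPKM in KO, against 35.5 and 20.6 in WT (3.04 ± 0.38; adjusted p = 0.00901, limma). Mir669j was at 239 and 222 FPKM in KO, against 58.9 and 87.3 in WT (1.67 ± 0.32; adjusted p = 0.0475, limma). These had the 3 highest means of the cluster in KO, and in each the lower KO library was above the higher WT library by a wide margin. The call of Mir669j was lost with GC content and length trends removed, where its log2 difference was 1.09 (adjusted p = 0.336, limma), and that of Mir669k was lost there too. The remaining 14 did not pass: 8 of the 17 were listed at 0 in both WT libraries, and 5 of those also in one KO library. At day 0 the cluster was already expressed, with Mir669k at 334 and 296 FPKM in KO, against 183 and 140 in WT. By day 6 Mir669k was at 35.6 and 65.0 FPKM in KO, against 37.4 and 36.0 in WT, and its groups overlapped at that day.

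The members of this cluster are near copies of one another and lie in an intron of Sfmbt2, and the sources used here state neither the use of strand nor the treatment of reads with several matches. Reads of the single members, of the host's unspliced RNA and of the microRNA precursors therefore cannot be told apart. A row shows RNA over the precursor gene in a total RNA library, not the mature microRNA. FPKM of a gene about as long as a read or 2 is also a coarse scale, on which a single read is worth several units.

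**Figure D3:**
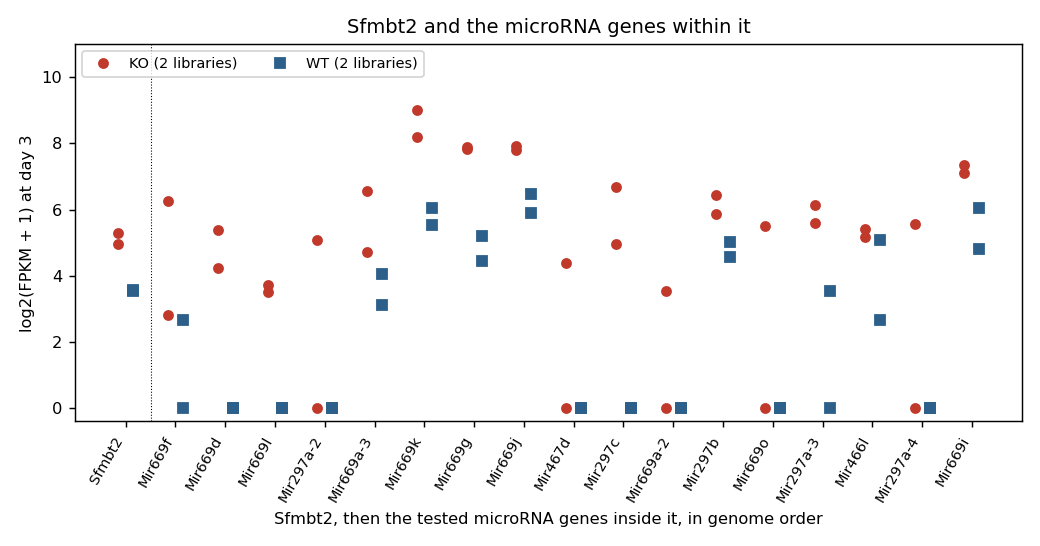
Level of Sfmbt2 and of the 17 tested microRNA genes inside it, in genome order, as log2(FPKM + 1), with KO to the left of WT for each gene. The highest KO points belong to Mir669k, Mir669g and Mir669j, and 8 genes have both WT points at 0.

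The promoter of Sfmbt2 is shown because a CXXC domain binds CpG. It comes from the RefSeq promoter table of GRCm38.p6, chr2:10370201-10370500 on the plus strand, which is 1 of 2 windows the table gives for the gene, and its 9 CG are in capitals.
Sfmbt2: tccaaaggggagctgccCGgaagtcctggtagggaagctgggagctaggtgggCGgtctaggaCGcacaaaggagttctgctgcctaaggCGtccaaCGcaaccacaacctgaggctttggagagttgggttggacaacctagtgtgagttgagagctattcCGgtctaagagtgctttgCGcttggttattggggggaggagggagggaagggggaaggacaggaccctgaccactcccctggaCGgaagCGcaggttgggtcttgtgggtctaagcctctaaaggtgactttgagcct

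Mir1954, Snord8 and Mir1b were each listed at 0 in both WT libraries at day 3. Mir1954, a microRNA gene at chr2:32652329-32652414 inside Eng, was at 30.0 and 25.4 FPKM in KO and is listed at 0 in all other libraries among the 12. Its host Eng, a TGF-beta co-receptor, was at 5.04 and 5.61 FPKM in KO, against 4.59 and 4.70 in WT, with an adjusted p of 0.568 in limma. Mir1b was at 5.80 and 4.90 FPKM in KO, and is likewise at 0 in every other library. Snord8, a small nucleolar RNA inside Chd8, was at 23.6 and 9.96 FPKM in KO at day 3, and at day 6 the order was the opposite, with 0 and 0 in KO and 12.4 and 23.9 in WT. For rows this short a value can rest on a few reads or a single read, and the number of reads was not determined. Their groups at 0 have no spread, so limma gave small adjusted p (1.72e-07 for Mir1954, 2.32e-05 for Mir1b and 0.00314 for Snord8) that do not reflect counting error. The mature strand of the largest rise, from the RefSeq microRNA table (chr2:32652342-32652362 on the plus strand), has its seed, bases 2 to 8, in capitals.
mmu-miR-1954: aCUGCAGAgugagacccuguu

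Genes known from germ cell precursors were mostly higher in KO. Of 15 on the list, all of which passed the minimum, 4 rose, beside 1.26% of all genes tested, and none fell. The median log2 difference was 0.63 against -0.01 over all genes tested. KO libraries were above WT in 12, beside 29.1% of all genes tested. In the model of days 0 and 3, 9 of the 15 rose, beside 3.58% of all genes. The list was drawn up with results of these data known, so its direction is a description. A separate list of germline genes silenced by DNA methylation gave no call among 14 tested, in this model or in that of days 0 and 3. Its median was 0.13, and KO libraries were above WT in 3 and below in 2, beside 29.1% and 31.8% of all genes tested.

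Rhox6 and Rhox9 belong to a cluster of X-linked homeobox genes that act in placenta and germline and are silenced by DNA methylation in the embryo proper. Rhox6, at chrX:37827055-37829857, was at 19.8 and 32.5 FPKM in KO, against 3.19 and 2.35 in WT. Rhox9, at chrX:37899097-37901770, was at 26.7 and 41.4 FPKM in KO, against 4.50 and 4.23 in WT. Both rose (2.82 ± 0.42 and 2.68 ± 0.26; adjusted p = 0.0204 and 0.00473, limma), with KO libraries well above WT. They are close paralogues, and how reads were split between them is unknown here. Rhox5, the third tested member of the cluster and the one expressed most in stem cells, was at 82.1 and 104 FPKM in KO, against 24.2 and 36.7 in WT, and did not pass (adjusted p = 0.138, limma). It passed in the model of days 0 and 3 (adjusted p = 0.0181, limma).

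Dppa3, whose protein protects maternal DNA methylation marks in the zygote, was at 80.9 and 100 FPKM in KO, against 28.3 and 29.0 in WT (1.62 ± 0.29; adjusted p = 0.0408, limma). Tfap2c, a transcription factor of both germ cell precursors and trophoblast, was at 28.6 and 35.2 FPKM in KO, against 11.1 and 15.1 in WT (1.23 ± 0.20; adjusted p = 0.0270, limma). In both, the groups were apart by more than the gap between replicates. Nanos3, an RNA-binding protein that keeps migrating germ cells alive, was at 5.34 and 6.24 FPKM in KO, against 2.12 and 1.59 in WT, and Prdm14, a repressor needed to set up the germline, was at 3.96 and 4.40 against 1.86 and 2.53. Neither passed (adjusted p = 0.0713 and 0.142, limma), and both did in the model of days 0 and 3 (0.00440 and 0.0367, limma). Kitl, which encodes stem cell factor, was the only member with KO libraries below WT, at 1.51 and 1.83 FPKM in KO and 1.97 and 2.44 in WT. Pramef12, a gene of testis and early embryo on another list, rose as well, at 8.10 and 9.31 FPKM in KO, against 3.44 and 3.13 in WT (1.18 ± 0.15; adjusted p = 0.00976, limma).

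On the trophoblast list, 8 of 16 genes passed the minimum. Of these 2 rose, Tfap2c and Krt7, a keratin of simple epithelia, beside 1.26% of all genes tested. In all 8 the KO libraries were above WT, beside 29.1% of all genes tested, with a median log2 difference of 0.78. In the model of days 0 and 3, 5 rose (Tfap2c, Krt7, Eomes, Krt19 and Sct), beside 3.58% of all genes. Krt7 was at 2.18 and 2.82 FPKM in KO, against 0.510 and 0.823 in WT (1.07 ± 0.13; adjusted p = 0.00888, limma). Since the minimum was taken over both genotypes, a gene can pass it through its KO libraries alone, so the 8 are not an account of the list.

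Several factors of the lineage stayed under the minimum, while Tfap2c and Eomes passed it. Cdx2, a master factor of the lineage, was at 0.186 and 0.200 FPKM in KO, against 0.0606 and 0.0617 in WT. Elf5, a factor of trophoblast stem cells, was at 0.171 and 0.144 FPKM in KO, against 0.0306 and 0.0312 in WT, and Gata3, a further factor of the lineage, was at 0.882 and 1.04 in KO, against 0.264 and 0.338 in WT. All 3 were higher in KO than in WT in both libraries, none was tested, and their levels were below that of Krt7. In bulk RNA, a few cells with a high level and many cells with a low level cannot be told apart.

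Several genes of epithelial junctions and barriers rose in KO. Gjb5, which encodes a connexin of gap junctions, was at 1.88 and 2.75 FPKM in KO, against 0.607 and 0.838 in WT (0.93 ± 0.16; adjusted p = 0.0368, limma). Both KO libraries lay above both WT libraries for Gjb5, while the connexin gene Gja1 was at 231 and 213 FPKM in KO and 232 and 231 in WT.

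Cldn4, a claudin of tight junctions, was at 26.9 and 29.8 FPKM in KO, against 14.2 and 12.8 in WT (1.02 ± 0.15; adjusted p = 0.0204, limma). Perp, a p53 target that builds desmosomes, was at 13.7 and 14.8 FPKM in KO, against 8.86 and 9.18 in WT (0.60 ± 0.07; adjusted p = 0.00713, limma). Chosen after their values were seen, Elf3, an epithelial ETS factor, was at 17.2 and 22.1 FPKM in KO, against 7.59 and 7.86 in WT, and Sfn, which encodes the epithelial protein stratifin, was at 36.3 and 40.8 against 19.4 and 15.8. Both rose (1.23 ± 0.17 and 1.09 ± 0.14; adjusted p = 0.0127 and 0.0106, limma). The list that holds Cldn4 mixes epithelial and mesenchymal genes, so its median is not read. Of 19 tested, 1 rose, beside 1.26% of all genes tested. KO libraries were above WT in 10 and below in 4, beside 29.1% and 31.8% of all genes tested. Cldn3, a second claudin, was at 12.1 and 12.3 FPKM in KO, against 6.49 and 5.65 in WT, and Cdh2, the neural and mesenchymal cadherin, at 7.44 and 7.46 against 10.2 and 10.8. Neither passed (adjusted p = 0.0743 and 0.394, limma), and both did in the model of days 0 and 3 (0.00508 and 0.0364, limma).

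Corepressors of the Groucho and TLE family, which are recruited by Tcf and other factors to silence genes, were tested as a list with Erf, an ETS repressor. Of 8 tested, 2 rose, beside 1.26% of all genes tested, and the median was 0.24. KO libraries were above WT in 6, beside 29.1% of all genes tested. Tle6 was at 4.93 and 5.37 FPKM in KO, against 1.42 and 1.65 in WT (1.28 ± 0.11; adjusted p = 0.00242, limma). Aes, a short member that counters the longer ones, was at 27.2 and 26.9 FPKM in KO, against 18.2 and 16.2 in WT (0.63 ± 0.07; adjusted p = 0.00700, limma). At day 0 both were lower in KO by value, with Tle6 at 5.58 and 6.45 FPKM in KO and 7.17 and 7.05 in WT, and the list median was -0.16.

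Wnt7b, a secreted Wnt ligand, was at 3.89 and 6.28 FPKM in KO, against 0.9005 and 0.586 in WT (1.78 ± 0.21; adjusted p = 0.00713, limma). It was the 1 gene to rise of 16 Wnt ligands and receptors tested, beside 1.26% of all genes, and the list median was -0.06. Among 12 Wnt feedback and target genes none passed (3 unadjusted, in limma), and the median was -0.03. Of the 12090 genes tested, 1848 had an unadjusted p under 0.05 in limma. Lef1, a factor through which Wnt signals act, was at 7.53 and 6.25 FPKM in KO, against 11.3 and 14.5 in WT (adjusted p = 0.0609, and 0.0268 in the model of days 0 and 3, limma).

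Of 18 genes on the autophagy list 2 rose, beside 1.26% of all genes tested, while the median was -0.01. KO libraries were above WT in 6 and below in 6, beside 29.1% and 31.8% of all genes tested. Calcoco2, listed as an autophagy receptor, was at 15.1 and 24.2 FPKM in KO, against 4.25 and 3.61 in WT (2.03 ± 0.32; adjusted p = 0.0270, limma). Ulk1, the kinase that starts autophagosome formation, was at 18.9 and 23.8 FPKM in KO, against 10.5 and 11.9 in WT (0.87 ± 0.10; adjusted p = 0.00700, limma). Atg13, the partner of Ulk1, was chosen after its values were seen: it was at 16.9 and 20.0 FPKM in KO, against 9.61 and 10.2 in WT, and rose (0.83 ± 0.09; adjusted p = 0.00684, limma).

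Metal and iron genes were among the rises. Slc40a1, which encodes the iron exporter ferroportin, was at 15.6 and 16.6 FPKM in KO, against 7.39 and 7.81 in WT (0.99 ± 0.15; adjusted p = 0.0199, limma). Hmox1, the enzyme that breaks down heme, was at 52.7 and 57.3 FPKM in KO, against 43.3 and 44.7 in WT (0.31 ± 0.06; adjusted p = 0.0428, limma). These were 2 of 11 iron genes tested, beside 1.26% of all genes that rose, and the median of the list was 0.05. The call of Hmox1 was lost without a filter on low values (adjusted p = 0.0554), after trends with GC content and length were taken out (0.1001) and in the 4 day 3 libraries alone (0.0681, limma). The metallothioneins Mt1 and Mt2, small zinc-binding proteins encoded side by side on chromosome 8, were chosen after their values were seen. Mt2 was at 512 and 553 FPKM in KO, against 190 and 211 in WT, and Mt1 was at 320 and 333 against 143 and 165. Both rose (1.41 ± 0.20 and 1.08 ± 0.19; adjusted p = 0.0148 and 0.0369, limma).

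Single members of other lists rose, and each count below stands beside the 1.26% of all genes tested that rose. Phf19, a Polycomb-like protein that guides the PRC2 complex to its targets, was at 7.98 and 10.1 FPKM in KO, against 2.83 and 3.06 in WT (1.34 ± 0.22; adjusted p = 0.0304, limma), the 1 rise among 18 Polycomb genes tested. Hk1, the hexokinase that opens glycolysis, was at 14.9 and 18.96 FPKM in KO, against 7.57 and 7.25 in WT (1.08 ± 0.14; adjusted p = 0.0106, limma), the 1 rise among 23 genes of glycolysis and hypoxia. Both had KO libraries above WT by more than the gap between replicates. Pim3, a kinase gene that responds to LIF, was at 18.1 and 19.03 FPKM in KO, against 14.01 and 13.2 in WT (0.42 ± 0.07; adjusted p = 0.0369, limma), the 1 rise among 14 genes of the LIF list. Cyr61, a matrix protein gene driven by YAP, was at 26.0 and 26.4 FPKM in KO, against 18.3 and 13.9 in WT (0.68 ± 0.13; adjusted p = 0.0493, limma), the 1 rise among 15 YAP and TEAD targets. The calls of Cyr61 and Pim3 lay near the threshold. That of Cyr61 was kept in 6 of 18 alternatives and lost with pseudocounts of 0.1 and 0.5 (adjusted p = 0.0523 and 0.0515, limma), and that of Pim3 was kept in 11 of 19.

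Klhl13, Aard and 3830417A13Rik were also among the largest rises. Klhl13, an X-linked adaptor of a cullin ubiquitin ligase, was at 68.5 and 90.1 FPKM in KO, against 24.3 and 24.9 in WT (1.64 ± 0.17; adjusted p = 0.00684, limma). Aard was at 12.7 and 15.5 FPKM in KO, against 3.54 and 3.29 in WT (1.76 ± 0.20; adjusted p = 0.00700, limma). The X-linked gene 3830417A13Rik was at 4.08 and 5.07 FPKM in KO, against 0.630 and 0.290 in WT (1.94 ± 0.21; adjusted p = 0.00684, limma). The WT pairs of Klhl13 and Aard were nearly equal, and in each of the 3 genes both KO libraries lay well above both WT libraries.

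Rises were spread over the chromosomes. The X chromosome held 9 rises and 2 falls among 434 genes tested, which is 2.07% for the rises, with a median log2 difference of -0.03. Chromosome 8 held 17 of 693 (2.45%), chromosome 15 held 10 of 475 (2.11%) and chromosome 2 held 20 of 956 (2.09%), beside the 1.26% of all genes.

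The count of CG in the promoter, a property the comparison did not use, was close to that of other expressed genes. RefSeq windows of 250 bases before to 50 after the start were at hand for 111 of the 152 genes that rose, with a median of 22 CG, and 83.8% held at least 10. The 9249 tested genes with a window had a median of 21, and 86.0% held at least 10, while over all windows of the table the median was 7 and the share 43.9%. CG reads the same on both strands. The windows differed widely among genes that rose: those of Klhl13, Tle6 and Gjb5 are shown, with CG in capitals, with 15, 18 and 3 CG, all below the median of 22. They lie on the minus strand of GRCm38.p6, Klhl13 at chrX:23365033-23365332 (1 of 5 windows), Tle6 at chr10:81600851-81601150 (1 of 2) and Gjb5 at chr4:127358115-127358414.
Klhl13: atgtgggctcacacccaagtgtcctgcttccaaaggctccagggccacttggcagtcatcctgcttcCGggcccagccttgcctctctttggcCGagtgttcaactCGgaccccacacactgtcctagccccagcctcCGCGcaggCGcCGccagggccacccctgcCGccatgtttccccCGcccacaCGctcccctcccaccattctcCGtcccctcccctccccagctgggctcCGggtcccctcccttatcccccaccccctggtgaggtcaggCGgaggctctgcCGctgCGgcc
Tle6: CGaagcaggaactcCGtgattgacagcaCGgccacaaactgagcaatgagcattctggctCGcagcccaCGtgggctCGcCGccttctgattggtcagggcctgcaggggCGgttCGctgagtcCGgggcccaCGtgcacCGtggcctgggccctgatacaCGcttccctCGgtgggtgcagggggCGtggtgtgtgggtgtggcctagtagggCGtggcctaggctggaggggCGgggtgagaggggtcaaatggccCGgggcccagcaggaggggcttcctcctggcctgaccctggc
Gjb5: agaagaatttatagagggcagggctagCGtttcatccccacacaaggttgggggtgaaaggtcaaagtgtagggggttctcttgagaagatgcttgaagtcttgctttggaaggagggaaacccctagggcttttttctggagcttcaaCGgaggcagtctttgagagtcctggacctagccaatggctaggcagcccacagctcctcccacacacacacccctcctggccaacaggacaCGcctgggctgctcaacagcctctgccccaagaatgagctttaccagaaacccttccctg

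The falls reached 2-fold in 3 of 10 genes, Cxxc5, Eif2s3y and Ntn1. Ntn1, a laminin-related guidance cue, was at 2.16 and 2.41 FPKM in KO, against 4.45 and 7.21 in WT (-1.03 ± 0.17; adjusted p = 0.0323, limma). Eif2s3y, a Y-linked translation factor gene, was at 2.86 and 1.82 FPKM in KO, against 9.40 and 14.4 in WT (-1.94 ± 0.32; adjusted p = 0.0297, limma). The 3 Y-linked genes tested of 4 listed had KO libraries below WT throughout, beside 31.8% of all genes tested. The 4 summed to 5.52 and 3.54 FPKM in KO, against 14.9 and 22.9 in WT. The part of this difference in Y-linked RNA in the other results was not tested.

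The remaining falls were Trp53i11, Ap1s2, Rnft1, Tmem29, Zfp354c, Ppp4r3b and Pgd, with log2 differences between -0.52 and -0.26. Trp53i11, a p53-induced gene, was at 11.3 and 12.0 FPKM in KO, against 17.3 and 16.8 in WT. Ap1s2, a subunit of the AP-1 clathrin adaptor, was at 8.64 and 8.08 FPKM in KO, against 12.4 and 12.4 in WT. Pgd, an enzyme of the pentose phosphate pathway and the most abundant of the falls, was at 73.3 and 71.8 FPKM in KO, against 86.3 and 87.3 in WT (-0.26 ± 0.05; adjusted p = 0.0484, limma). In all 7 the difference was under 2-fold and wider than the gap between replicates.

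Pluripotency, methylation and lineage genes were compared as lists, each read beside the median of all genes tested (-0.01). Each count at an unadjusted p under 0.05, here and below, stands beside 1848 of the 12090 genes tested. Of the 11 genes of the fixed panel of pluripotency factors, Tet enzymes and DNA methyltransferases, none passed at day 3 in limma, and 1 had an unadjusted p under 0.05 (Klf4). Pou5f1 was at 317 and 326 FPKM in KO, against 315 and 309 in WT, and Sox2 at 124 and 129 against 133 and 134. Nanog was at 142 and 155 FPKM in KO, against 108 and 116 in WT, and was the 1 panel gene past the threshold in the model of days 0 and 3 (0.41 on the log2 scale, adjusted p = 0.0277, limma). Esrrb, a naive factor, was at 42.9 and 47.2 FPKM in KO, against 30.4 and 41.2 in WT, and Klf4 at 1.19 and 1.52 against 2.18 and 3.33.

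A list of 14 genes that add, oxidise, read or protect DNA methylation gave no call, and 2 had an unadjusted p under 0.05 in limma. Tet1 was at 38.7 and 40.3 FPKM in KO, against 41.1 and 39.7 in WT. Tet2 was at 6.58 and 7.18 FPKM in KO, against 6.01 and 6.74 in WT, and Tet3 was at 4.62 and 4.26 against 5.00002 and 4.37. The Tet groups overlapped in each case. Dnmt3a was at 26.5 and 23.4 FPKM in KO, against 31.3 and 34.7 in WT, and Dnmt3b was at 358 and 307 against 382 and 375. Dnmt3l, their cofactor, was at 26.0 and 34.8 FPKM in KO, against 21.7 and 28.0 in WT. Adjusted p over the 6 was between 0.363 and 0.949 in limma. Zfp57, a zinc finger protein that keeps imprints methylated, was at 20.2 and 20.01 FPKM in KO, against 25.05 and 29.02 in WT (adjusted p = 0.0605, and 0.0367 in the model of days 0 and 3, limma).

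Among naive pluripotency genes 1 of 14 tested rose (Dppa3), beside 1.26% of all genes tested, and the median was 0.15. For general pluripotency genes the count was 0 of 14, adjusted or not, and the median 0.04. For formative and primed epiblast genes no member of 15 passed (2 had an unadjusted p under 0.05 in limma), the median was -0.19, and KO libraries were below WT in 10, beside 31.8% of all genes tested. In the model of days 0 and 3, Lef1 fell and Fst, which encodes the activin antagonist follistatin, rose, at 12.8 and 15.1 FPKM in KO, against 7.13 and 9.64 in WT (adjusted p = 0.0398, and 0.383 with 12 libraries, limma). Neuroectoderm genes gave no call among 10 (2 unadjusted), with a median of -0.19 and KO below WT in 6. A list of imprinted genes that does not hold Sfmbt2, which rose, gave none among 23 (7 unadjusted, 2 of them higher in KO), with a median of -0.19 and KO below WT in 16. Igf2, a growth factor gene expressed from the paternal copy, stood on the other side, at 15.8 and 18.7 FPKM in KO, against 7.25 and 6.06 in WT (adjusted p = 0.451, and 0.00317 in the model of days 0 and 3, limma). Igf2r, the receptor that clears Igf2, was at 25.7 and 27.5 FPKM in KO, against 20.7 and 18.7 in WT (adjusted p = 0.208, and 0.0273 in the model of days 0 and 3, limma).

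No primitive streak or blood and endothelial gene passed the threshold. Of 17 primitive streak genes 8 were tested, of which none passed (1 unadjusted, in limma), and their median was 0.37. KO libraries were above WT in 7, beside 29.1% of all genes tested. T, the streak factor brachyury, was at 1.71 and 2.34 FPKM in KO, against 0.798 and 0.650 in WT, and Eomes was at 10.2 and 11.6 against 5.30 and 6.59. Both passed in the model of days 0 and 3 (adjusted p = 0.0206 and 0.0151, limma), not in that of 12 libraries (0.358 and 0.324). Of 16 blood and endothelial genes 11 were tested, of which none passed (3 unadjusted), and their median was -0.33. KO libraries were below WT in 7, beside 31.8% of all genes tested. Etv2, the factor that starts the blood and endothelial lineage, was at 2.87 and 2.94 FPKM in KO, against 5.18 and 4.60 in WT, and Kdr, a receptor for vascular growth factors, at 0.762 and 0.829 against 1.67 and 2.42. Both passed in the smaller model (adjusted p = 0.0251 and 0.0277, limma, against 0.0755 and 0.613 with 12 libraries), where the day 6 values of Kdr, 43.5 and 51.6 FPKM in KO and 4.41 and 33.0 in WT, do not enter the spread. In that model 4 of the 11 fell, the others being Sox18 and Fli1, and 2 rose, Gata2 and Pecam1. Of all genes tested, 1.16% fell and 3.58% rose in the same model. Pecam1, an adhesion molecule of endothelium, was at 12.1 and 15.3 FPKM in KO, against 5.20 and 8.17 in WT (adjusted p = 0.0352, and 0.0976 with 12 libraries, limma). Gata2, a blood progenitor factor, was at 1.81 and 2.34 FPKM in KO, against 1.13 and 0.828 in WT. Sox18, an endothelial factor, was at 1.06 and 1.17 FPKM in KO, against 2.06 and 2.62 in WT, and Fli1, an ETS factor of blood and vessels, at 0.629 and 0.773 against 1.30 and 1.51. The minimum was taken over both genotypes, and T passed it through KO libraries alone, and Kdr and Fli1 through WT libraries alone. The counts and medians of the tested members are thus not an account of either list.

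Housekeeping lists stayed near the median of all genes. Cytosolic ribosomal protein genes gave 0 calls of 22 (2 at an unadjusted p under 0.05, limma) and a median of -0.05, oxidative phosphorylation genes 0 of 23 (1 unadjusted) and 0.02, and cell cycle genes 0 of 24 (3 unadjusted) and -0.01. Integrated stress response genes gave 0 of 17, adjusted or not, and 0.06. In all, 18 of the 40 lists with a tested member held at least 1 gene past the threshold and 22 held none.

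**Figure D4:**
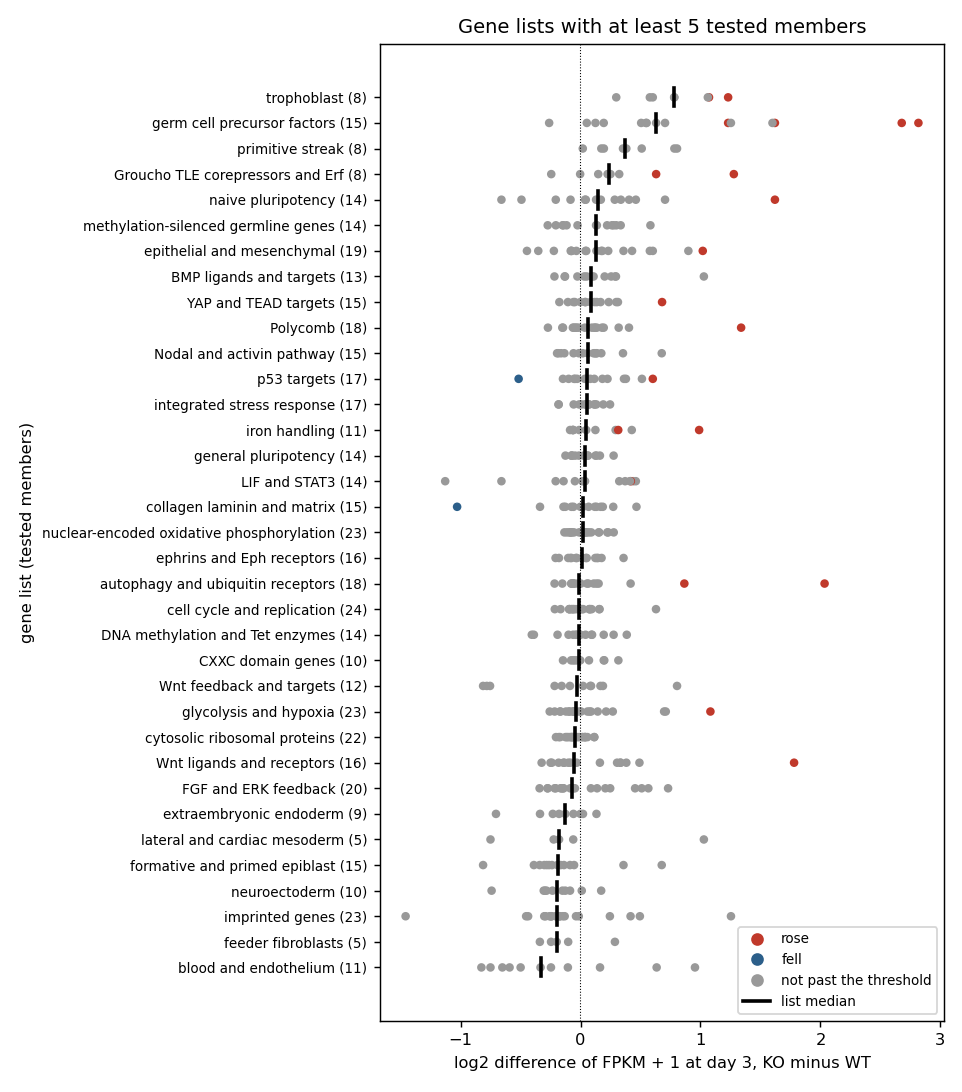
Log2 difference at day 3 (KO minus WT) of each tested member of the gene lists with at least 5 tested members, ordered by median. Trophoblast (0.78), germ cell precursor (0.63) and primitive streak (0.37) lists have the highest medians and blood and endothelium (-0.33) the lowest, and the dotted line is the median of all genes tested. The medians cover tested members, some of which passed the minimum through a single genotype. The trophoblast list shares Tfap2c with the germ cell precursor list and Eomes with the primitive streak list.

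Levels at the other days set the day 3 differences in time. Of the 152 genes that rose at day 3, 13 also rose at day 0 (8.55% of the day 3 rises and 29.5% of the 44 day 0 rises) and 82 at day 6 (53.9% of the day 3 rises and 3.82% of the 2149 day 6 rises), and 9 rose on all 3 days. The KO mean was above the WT mean for 130 of the 152 at day 0 and for 138 at day 6, beside 49.0% and 51.5% of all genes tested. The lines are the same on each day, so the days are not independent. Of the 10 falls, 2 were also called at day 0 and 9 at day 6. At day 0, 0.364% of the genes rose and 0.174% fell, and at day 6, 17.8% and 16.9%.

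In KO, 79 of the 152 were lower at day 3 than at day 0, with a median log2 change of -0.03, and in WT 102 were, with a median of -0.53. Over all genes tested the shares were 50.8% in KO and 51.0% in WT, and both medians were -0.01. These changes use the day 3 libraries that also chose the 152, so they carry no test. Sfmbt2 was at 32.3 and 36.7 FPKM in KO, against 26.3 and 19.4 in WT, at day 0, and its KO level at day 3 was about the same. Elf3 and Ulk1 had close day 0 levels, at 22.5 and 23.6 FPKM in KO and 22.1 and 23.6 in WT for Elf3, and 37.4 and 39.3 in KO and 36.0 and 37.2 in WT for Ulk1.

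**Figure D5:**
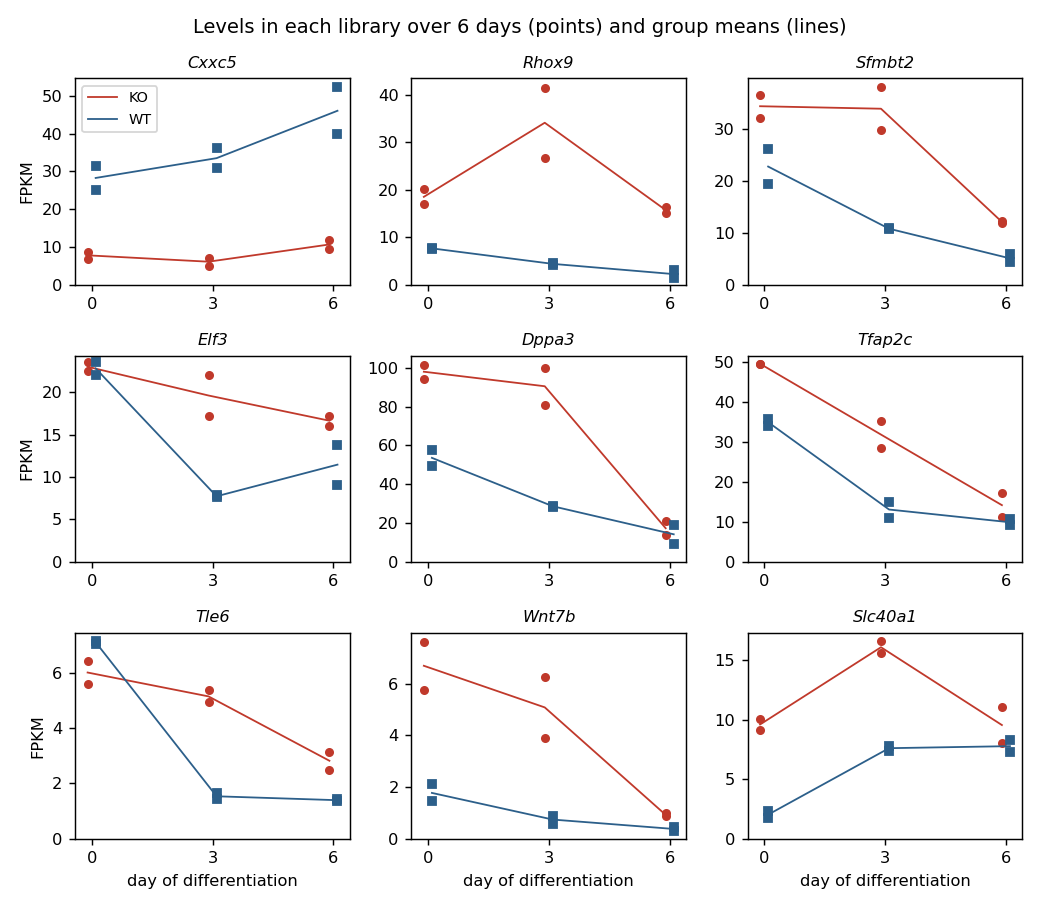
FPKM of 9 genes at days 0, 3 and 6 in each library (points) with group means (lines), KO and WT side by side. Elf3 is close between genotypes at day 0 and apart at day 3, Tle6 is slightly lower in KO at day 0 and higher in KO at day 3, Wnt7b, Rhox9 and Dppa3 are apart from day 0, and Dppa3 and Slc40a1 overlap at day 6.

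A test of whether the KO difference changed between day 0 and day 3, the genotype by day term of the model, passed for 10 genes, 0.0827% of those tested. For 9 the difference was more positive at day 3 and for 1 more negative, and 7 of the 10 were among the day 3 calls. The split changed when single libraries were left out: without WT replicate 2 the term passed for 6 genes more positive and 17 more negative at day 3, with 5 of the 10 among them, and without WT replicate 1 for 5 and 4, with 4 of the 10. With KO replicate 1 left out, 17 were more positive and 1 more negative, with 6 of the 10. Tle6 had a change of 1.49 ± 0.15 on the log2 scale (adjusted p = 0.0173, limma). Most genes that rose at day 3, such as Rhox6 (1.54, adjusted p = 0.582, limma) and Sfmbt2 (0.97, adjusted p = 0.369, limma), did not pass this test. Elf3 and Ulk1, with close day 0 levels, did not pass it either (adjusted p = 0.218 and 0.187, limma).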

How the data were processed

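The authors deposited FPKM values of 12 embryoid body libraries from total RNA, sequenced as 75 bp single-end reads per the series' design text. Per the submitters' processing notes, Trim Galore 0.4.1 and TopHat2 2.0.13 (genome build mm10) were used, and the notes list HTSeq 0.6.1, Cufflinks 2.2.1 and Cuffdiff without a role. The sources used here do not state the annotation, the use of strand or the scaling. The medians of the day 3 libraries agree within 0.01 on the log2 scale, and the 92 spike-in rows are 0 throughout. Samples were grouped by the genotype, replicate and day that the column names and labels give.

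From there, log2(FPKM + 1) was fitted with limma 3.58.1 in R 4.3.3, with one mean per genotype and day over 12 libraries, a variance trend and Benjamini-Hochberg adjustment over the 12090 genes. The log2(FPKM + 1) scale understates changes of low genes. The script was tested on simulated data. Columns were matched to samples by name, and coordinates come from RefSeq GRCm38.p6, in which 23661 symbols matched directly, 696 by a synonym and 101 not. Depths are estimates from 3114 genes with a single transcript.

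The genes and lists were chosen with earlier results of these data known. Genes are named by a rule: Cxxc5, a panel of 11, the 15 largest rises, the 10 falls and the list members past the threshold. In lists without one, members past the threshold in the model of days 0 and 3 and abundant members could be named, up to 5 a list, and other genes are said to be chosen after their values were seen. A gene that these rules name is not reported here. Alternatives covered the pseudocount, the filter, scaling, GC content and length, the libraries in the fit, weights, blocks and leaving out each library. An embryonic stem cell table was not used, since its replicates could not be matched to the labels.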

Additional observations from a re-analysis of the deposited data

Results flagged for a closer look

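The 9 genes below had KO minus WT differences that changed between day 0 and day 3 past the threshold of the genotype by day term in limma, which tests that change itself. The changes are on the log2(FPKM + 1) scale, day 3 minus day 0, with their SE. The corepressor gene Tle6 changed by 1.49 ± 0.15 (adjusted p = 0.0173, limma), and its WT level was lower at day 3 than at day 0. The corepressor Aes changed by 0.92 ± 0.10 (adjusted p = 0.0259, limma) and the repressor Erf by 0.85 ± 0.10 (adjusted p = 0.0342, limma). For both the KO difference was below 0 at day 0 (-0.29 for Aes and -0.53 for Erf) and above 0 at day 3 (0.63 for Aes and 0.32 for Erf).

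Mpc1, a subunit of the mitochondrial pyruvate carrier, changed by 0.98 ± 0.13 (adjusted p = 0.0441, limma). It was at 9.72 and 10.3 FPKM in KO and 7.68 and 8.49 in WT at day 3, and at 15.5 and 18.0 in KO and 27.8 and 27.8 in WT at day 0. Plekhh1 changed by 0.97 ± 0.12 (adjusted p = 0.0438, limma), and was at 5.99 and 6.66 FPKM in KO and 3.35 and 3.22 in WT at day 3. Efnb2, an ephrin ligand, changed by -0.96 ± 0.10 (adjusted p = 0.0173, limma). It was at 6.11 and 6.05 FPKM in KO and 2.75 and 3.06 in WT at day 0, and at 27.5 and 25.3 in KO and 27.3 and 29.6 in WT at day 3.

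The short genes Mir1954, Snord8 and Mir1b changed by 4.84, 4.04 and 2.66. They are listed at 0 in all 4 libraries of day 0 and in both WT libraries of day 3, so these values depend on the pseudocount and are no bounds.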

How the results depend on the processing

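The number of genes past the threshold at day 3 was 162, and the number for the genotype by day term 10. At day 3 it was 84 with no filter on low values, 260 (208 higher, 52 lower) with quantile normalization, 89 with GC content and length trends removed, 573 (433 higher, 140 lower) with the 8 libraries of days 0 and 3, and 1370 (844 higher, 526 lower) with library weights per group. It was 231 (190 higher, 41 lower) with the 4 day 3 libraries alone. The share that was higher was 80.0%, 75.6%, 61.6% and 82.3% in those splits, against 93.8%. Leaving out 1 library gave 19 to 71 genes, with 30 higher and 17 lower without WT replicate 2 and 19 higher and 5 lower without WT replicate 1. The cause of these shifts was not tested. The other alternatives stayed within 1.5 times: pseudocounts of 0.1 and 0.5, a minimum FPKM of 5, median ratio scaling, and a term for the cell line. So did 2 alternatives chosen after seeing the data, 194 genes with RefSeq spans of at least 300 bases and 201 with values above 0 in all 12 libraries.

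For the genotype by day term the count was 6 with a minimum FPKM of 5, 3 with GC content and length trends removed, 28 with the 8 libraries, 6 with the cell line as a random effect, and 9 to 23 without 1 library (18 without KO replicate 1, and 23 without WT replicate 2, of which 6 were higher and 17 lower).

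The labels do not say that equal replicate numbers mark a shared culture, and the replicate 1 minus 2 differences of KO and WT correlated across genes by only 0.03, 0.08 and 0.29 at days 0, 3 and 6. With a replicate block the counts were 233 at day 3, with 125 of the 162 among them, and 3 for the genotype by day term. With the block and GC content and length trends removed they were 163, with 97 of the 162, and 1, which was none of the 10. Of the 53 named calls, 9 ended with the block and 11 with the block and trends removed, among the latter Slc40a1 and Cdh3.

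The log2 difference of Pou5f1, 0.04, became -0.0155 with GC content and length trends removed, with or without the replicate block, and that of Tet3, -0.06, became 0.0184 without WT replicate 1 (-0.142 to 0.0184 over the 4 libraries left out). Neither passed the threshold in any of these. With 2 libraries a group and 15.4 M reads in the shallowest, genes near an FPKM of 1 and rows under 300 bases are the least precise.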

Other observations

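Further genes that rose at day 3 were chosen after their values were seen. On the X chromosome, Nrk, a kinase gene of the placenta in mouse, was at 7.18 and 7.92 FPKM in KO, against 4.15 and 3.64 in WT (0.80 ± 0.10; adjusted p = 0.00988, limma). AU015836 was at 19.7 and 26.3 FPKM in KO, against 8.27 and 6.77 in WT, and Nup62cl at 12.3 and 15.8 against 6.74 and 6.86. Mpp1, a membrane scaffold protein, was at 12.5 and 12.6 FPKM in KO, against 8.67 and 7.92 in WT. In all 4 both KO libraries lay above both WT libraries, and adjusted p for the last 3 was 0.0163, 0.0203 and 0.0369 in limma.

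Aqp3, a water and glycerol channel of epithelia, was at 6.87 and 9.44 FPKM in KO, against 2.04 and 1.92 in WT (1.61 ± 0.21; adjusted p = 0.0106, limma). Cdh3, the cadherin named after placenta, was at 27.1 and 30.6 FPKM in KO, against 14.8 and 16.1 in WT (0.86 ± 0.15; adjusted p = 0.0327, limma). Fabp3, a fatty acid carrier, was at 288 and 369 FPKM in KO, against 119 and 113 in WT (1.48 ± 0.27; adjusted p = 0.0428, limma).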
